A study of Homo sapiens with 8 samples.

Results

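The genes described here are 7 ligands of the transforming growth factor-beta (TGF-beta) superfamily (TGFB1, TGFB2, INHBA, INHBB, INHBE, GDF15 and BMP4) and 3 secreted proteins that bind such ligands (FST, FSTL3 and LTBP1). They were chosen with earlier results of these data known and matched by symbol, and all 10 were found among the 58688 gene rows of every sample. RNA was sequenced from LM2 cells, a lung-metastatic derivative of the triple negative human breast cancer line MDA-MB-231. In a drug experiment, 2 DMSO samples were compared with 2 samples given 1 µmol/L Ponatinib, an inhibitor of ABL and other tyrosine kinases, for 6 h. In a knockdown experiment, LM2 cells stably carried a lentiviral scrambled shRNA (shCtrl), ABL1 shRNA, ABL2 shRNA or ABL1/ABL2 shRNA (both shRNAs), with 1 sample each and no replicates. All 4 of these lines, the control included, were transduced and puromycin selected, so the experiments were compared only within themselves. The comparisons ask how ligand and binder mRNA levels differ after kinase inhibition and after partial knockdown of ABL1, ABL2 or both.

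TGF-beta, activin, GDF and BMP ligands are dimers that bring type I and type II receptor kinases together, and the active type I receptor phosphorylates SMAD proteins that enter the nucleus. TGF-beta is secreted in a latent complex with a latent TGF-beta binding protein such as LTBP1, whereas follistatin (FST) and follistatin-like 3 (FSTL3) hold activins away from their receptors. In breast cancer, TGF-beta signalling is known for restraining early growth and for favouring invasion and metastasis later.

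The samples held 7568934 to 13010896 counts on genes. The detection floor of 3 counts thus corresponded to 0.2306 to 0.3964 CPM (counts set relative to the library's total). Gene levels in CPM below, other than this floor, were also scaled by TMM, a normalisation between libraries, and differ slightly from the plain values. The least deeply sequenced sample was Ponatinib replicate 2. Of the line's markers, VIM had at least 23217 counts and CD44 at least 4205 in every sample, ESR1 had 3 to 11, PGR 0 and CDH1 0 to 23, whereas ERBB2 had 515 to 826 and EPCAM 61 to 125. The leukocyte marker PTPRC had 0 to 3 counts. The endothelial marker PECAM1 had 18 to 42 counts in the drug experiment and 233 in shCtrl and 398, 499 and 393 with ABL1, ABL2 and both shRNAs, and its part in the knockdown values was not tested. Inside the file labelled shCtrl the header names ABL1 shRNA, and inside that labelled ABL1 shRNA it names the control. ABL1 was lower in the library labelled ABL1 shRNA than in that labelled shCtrl, with a ratio of 0.383 (95% counting interval 0.355 to 0.414), and 0.576 times shCtrl with both shRNAs. ABL2 was at 0.396 times shCtrl with ABL2 shRNA and 0.625 with both. In the drug experiment, ABL2 mRNA itself fell after Ponatinib (log2 fold change -1.02, edgeR adjusted p = 8.6e-08) and ABL1 mRNA rose (0.19, edgeR adjusted p = 0.029). In these bulk samples, fewer cells making a transcript and less of it per cell cannot be told apart.

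Among the ligands and binders, INHBE, GDF15 and LTBP1 rose and INHBA and FST fell after Ponatinib, while TGFB1, TGFB2, INHBB, BMP4 and FSTL3 did not pass the test. A gene is said to have risen or fallen where its adjusted p was under 0.05 in the quasi-likelihood test of edgeR, adjusted by Benjamini-Hochberg over the 16031 genes tested. All 10 members passed the filter on low counts, INHBE only through the Ponatinib group. By the rule 3 of 10 members rose and 2 fell, beside 15.0% and 15.7% of all genes tested, so counts this small do not set the members apart from all genes. With the study's thresholds (past 2-fold, raw p below 0.05), 2 members rose (INHBE and GDF15) and 2 fell (INHBA and FST), beside 3.19% and 2.29% of all genes. The members were chosen with earlier results of these data known, and INHBE had to differ, so these counts are a description. The median log2 fold change of the members was 0.06 and that of all genes tested was -0.0047. Nothing in the labels says that the 2 samples of a group came from separate cultures, so the p-values measure the spread between these samples, which may be technical. With 2 samples a group, groups without overlap are common among unchanged genes too, so such statements only describe the points.

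**Figure D1:**
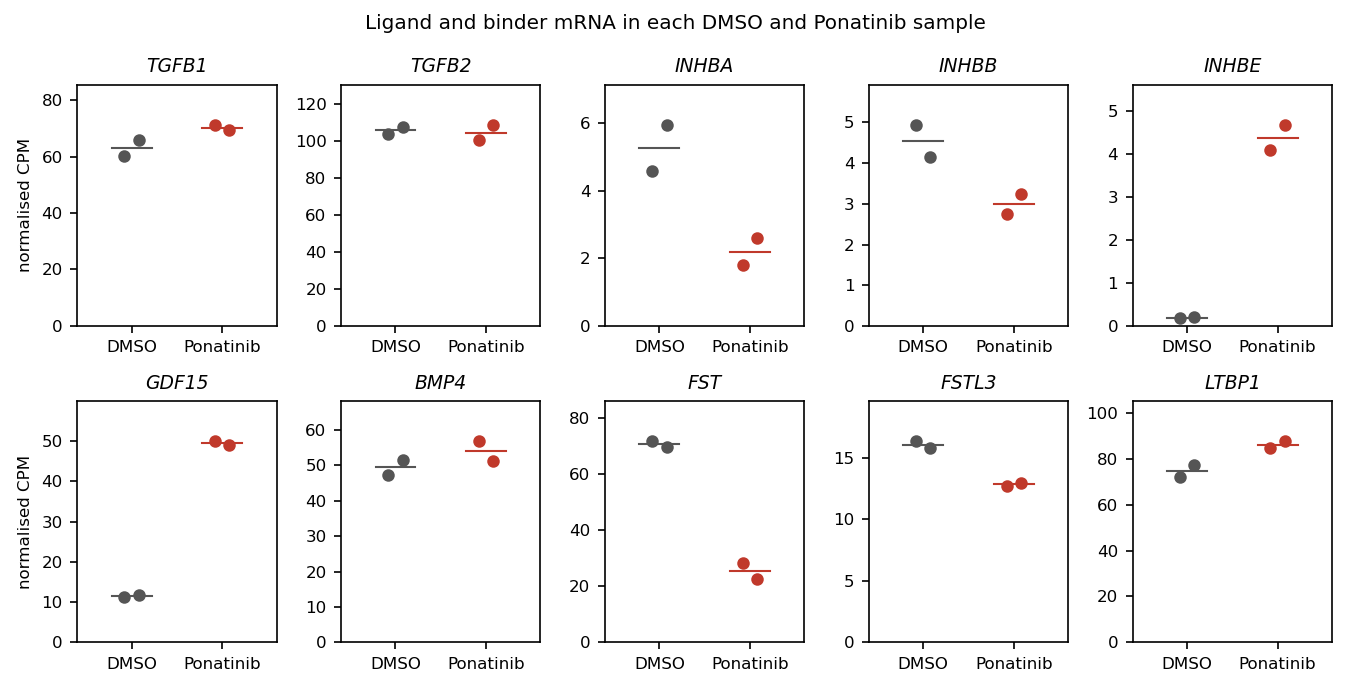
Normalised CPM (y axes, each from 0) of the 10 members in the 2 DMSO and 2 Ponatinib samples, with 1 point a sample and a line at each group's mean. The GDF15 points lie at 11.2 and 11.7 with DMSO and at 49.97 and 49.07 with Ponatinib, whereas the TGFB2 and BMP4 points overlap between the groups.

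GDF15, a divergent family member that is secreted by stressed cells and acts on appetite through the receptor GFRAL, had the clearest rise. Its TMM-normalised level was 11.2 and 11.7 CPM in the DMSO samples and 49.97 and 49.07 CPM in the Ponatinib samples. The groups were far apart and the samples of each group nearly the same, with a 4.32-fold rise (log2 fold change 2.11, SE 0.10, 95% interval 1.89 to 2.33, edgeR adjusted p = 1.3e-09).

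INHBE encodes the beta E subunit of the activins, is best known as a liver product and was nearly silent without drug. It had 2 counts in each DMSO sample, under the detection floor of 3, against 43 and 36 counts with Ponatinib, or 0.18 and 0.20 CPM against 4.08 and 4.67 CPM. Both Ponatinib samples were thus above both DMSO samples, and the summed counts of 79 and 4 gave a ratio of 22.97 after normalisation (exact 95% counting interval 8.63 to 86.4). The fitted log2 fold change was 4.44 (SE 0.43, edgeR adjusted p = 1.9e-06). INHBE passed the filter on low counts only through the Ponatinib group and therefore had to differ, and its fitted value depends on the prior count.

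INHBA and INHBB encode the beta A and beta B subunits, which pair into activin A, activin B or activin AB. INHBA was at 4.59 and 5.96 CPM with DMSO and at 1.80 and 2.60 CPM with Ponatinib. Both Ponatinib samples lay below both DMSO samples, and INHBA fell 2.44-fold (log2 fold change -1.28, SE 0.27, 95% interval -1.87 to -0.70, edgeR adjusted p = 0.0023). The size of this change leaned on Ponatinib replicate 1, the lower of the pair: without it the log2 difference was -0.9977 (adjusted p = 0.011 from edgeR), and INHBA no longer passed the fold threshold of 2. INHBB was at 4.94 and 4.14 CPM with DMSO and at 2.75 and 3.25 CPM with Ponatinib. The groups did not overlap, but the difference did not pass the test (log2 fold change -0.62, 95% interval -1.14 to -0.10, edgeR adjusted p = 0.069).

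For the 3 ligand mRNAs that were highest per length without drug, no difference passed the test. TGFB1, the founding member of the family, was at 60.1 and 66.1 CPM with DMSO and at 71.3 and 69.3 CPM with Ponatinib (log2 fold change 0.16, 95% interval -0.001 to 0.321, edgeR adjusted p = 0.13), without overlap of the groups. TGFB2, which binds its type II receptor weakly unless the coreceptor betaglycan (TGFBR3) presents it, was at 103.8 and 107.7 CPM with DMSO and at 100.3 and 108.8 CPM with Ponatinib. Its groups overlapped (log2 fold change -0.02, edgeR adjusted p = 0.86). BMP4, a ligand of the BMP branch that signals through SMAD1 and SMAD5, was at 47.2 and 51.6 CPM with DMSO and at 56.8 and 51.3 CPM with Ponatinib, and its groups overlapped (log2 fold change 0.14, 95% interval -0.043 to 0.318, edgeR adjusted p = 0.24). For TGFB2, the interval reaches from -0.165 to 0.127 on the log2 scale.

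Of the binders, FST, which traps activins almost irreversibly, was at 71.7 and 69.8 CPM with DMSO and at 28.2 and 22.7 CPM with Ponatinib. The groups were well separated, and FST fell 2.75-fold (log2 fold change -1.46, SE 0.10, 95% interval -1.66 to -1.25, edgeR adjusted p = 2.6e-08). The other activin antagonist, FSTL3, was at 16.3 and 15.8 CPM with DMSO and at 12.7 and 13.0 CPM with Ponatinib. Its groups did not overlap, but it did not pass the test (log2 fold change -0.32, 95% interval -0.60 to -0.05, edgeR adjusted p = 0.074). The latent complex gene LTBP1 was at 72.2 and 77.3 CPM with DMSO and at 84.8 and 87.6 CPM with Ponatinib, a small rise without overlap of the groups (log2 fold change 0.21, SE 0.07, edgeR adjusted p = 0.038). That call was lost without DMSO replicate 1 (log2 fold change 0.16, edgeR adjusted p = 0.39), without DMSO replicate 2 (0.26, adjusted p = 0.12), with no filter on low counts (0.20, adjusted p = 0.07) and by DESeq2's Wald test (0.20, adjusted p = 0.23).

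**Figure D2:**
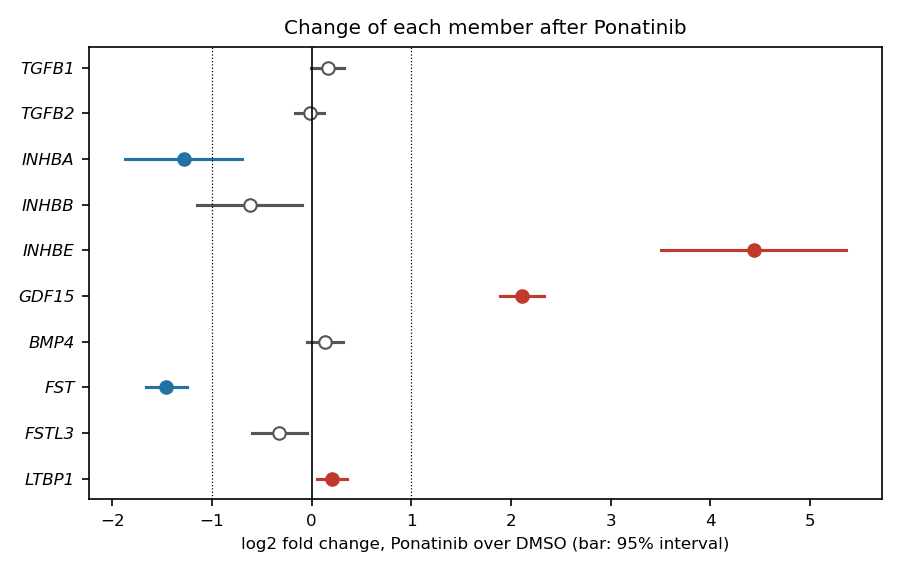
Log2 fold change, Ponatinib over DMSO, of each member (x axis) with its 95% interval from the edgeR fit of 2 samples a group; filled red points rose, filled blue points fell, open points did not pass the test, and dotted lines mark a 2-fold change. INHBE at 4.44 and GDF15 at 2.11 lie to the right, INHBA at -1.28 and FST at -1.46 to the left, and LTBP1 at 0.21 sits close to 0.

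Levels of different genes were compared as RPKM, the normalised CPM divided by the length in kilobases of each gene's merged exons. The annotation release used for counting is not given, so these lengths may include exons that were not counted, and close ranks are uncertain. With DMSO, the mean RPKM ran in the order FST (25.7), TGFB1 (19.3), TGFB2 (17.5), BMP4 (16.0), LTBP1 (10.2), GDF15 (5.49), FSTL3 (5.29), INHBB (1.42), INHBA (0.637) and INHBE (0.0621). The DMSO samples of the neighbours GDF15 (5.37 and 5.61) and FSTL3 (5.38 and 5.20) overlapped. TGFB1 (18.4 and 20.2), TGFB2 (17.2 and 17.8) and BMP4 (15.3 and 16.7) did not overlap, but were separated by gaps smaller than the spread of TGFB1 and of BMP4. With Ponatinib, GDF15 stood first at 23.7 RPKM, ahead of TGFB1 at 21.5, BMP4 at 17.5 and TGFB2 at 17.3. The ranges of BMP4 and TGFB2 then overlapped. FST moved from the highest level to 9.24 RPKM, below LTBP1 at 11.7, and INHBE at 1.44 RPKM stood above INHBB at 0.935 and INHBA at 0.265. The transcript of the activin antagonist FST was thus above that of either activin subunit, INHBA or INHBB, with and without drug, on this per-length scale.

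**Figure D3:**
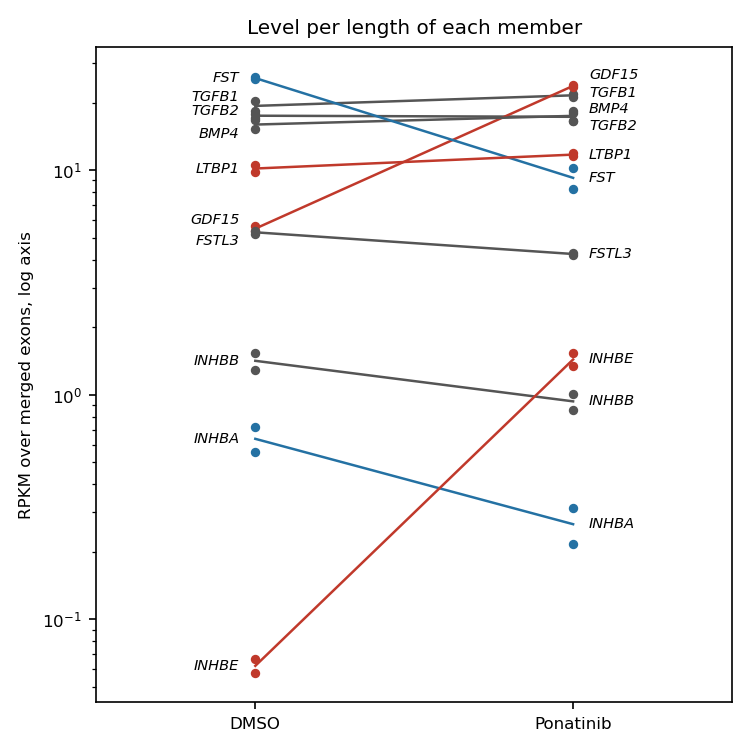
RPKM over merged exons (y axis, log scale) of the 10 members with DMSO and with Ponatinib; points are the 2 samples of each group and lines join the group means, in red for genes that rose, blue for those that fell and grey for the rest. GDF15 climbs from 5.49 to 23.7 RPKM and INHBE from 0.0621 to 1.44, while FST drops from 25.7 to 9.24 RPKM.

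The promoters of the members with the largest changes after Ponatinib, INHBE apart, and of TGFB2, which differed most in the knockdowns, are shown. The sequence in front of each start can thus be read beside its response. RefSeq (GRCh38.p14) gave promoter windows, from 250 bases before to 50 after the start, for 9 of the 10 members, the exception being INHBE. The bases before the start are printed 5′ to 3′ on the gene's strand, with each GGAATG or its reverse complement CATTCC, the core letters bound by TEAD factors, in capitals.
GDF15, chr19:18385908-18386157, plus strand: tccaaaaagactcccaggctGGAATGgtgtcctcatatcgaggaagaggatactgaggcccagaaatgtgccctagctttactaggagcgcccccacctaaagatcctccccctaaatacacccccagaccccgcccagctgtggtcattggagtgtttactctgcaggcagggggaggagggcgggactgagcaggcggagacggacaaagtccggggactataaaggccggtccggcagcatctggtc
INHBA, chr7:41703091-41703340, minus strand: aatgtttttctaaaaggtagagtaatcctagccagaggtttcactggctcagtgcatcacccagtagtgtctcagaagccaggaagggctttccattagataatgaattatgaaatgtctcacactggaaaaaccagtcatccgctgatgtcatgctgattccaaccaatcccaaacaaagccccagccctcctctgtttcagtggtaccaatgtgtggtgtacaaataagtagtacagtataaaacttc
FST, chr5:53480379-53480628, plus strand: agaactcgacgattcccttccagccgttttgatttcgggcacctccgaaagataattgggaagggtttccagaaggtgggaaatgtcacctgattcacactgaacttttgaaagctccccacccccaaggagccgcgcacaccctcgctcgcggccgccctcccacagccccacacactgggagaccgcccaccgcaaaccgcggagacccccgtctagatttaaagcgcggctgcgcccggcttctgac
TGFB2, chr1:218345086-218345335, plus strand: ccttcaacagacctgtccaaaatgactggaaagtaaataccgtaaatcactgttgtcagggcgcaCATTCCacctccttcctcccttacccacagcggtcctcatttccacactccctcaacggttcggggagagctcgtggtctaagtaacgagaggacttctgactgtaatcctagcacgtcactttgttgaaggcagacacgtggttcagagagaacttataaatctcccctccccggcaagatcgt
GGAATG was found, on either strand, in the windows of GDF15 (230 bases before the start), TGFB2 (185 before) and 1 of the 3 BMP4 windows, and 14.0% of the 34943 promoters in the table hold it. The AP-1 letters TGACTCA or TGAGTCA, held by 4.96% of promoters, and the C/EBP-ATF letters TGATGNAA, held by 3.62%, were searched on both strands and lay in none of the members' windows. No 2 of these motifs share a match here, and the matches are letters in a window, not sites of binding.

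The genes lie, on GRCh38 in GENCODE, on chromosome 19 from 41301587 to 41353922 (TGFB1), chromosome 1 from 218345336 to 218444619 (TGFB2), chromosome 7 from 41667168 to 41705834 (INHBA), chromosome 2 from 120346136 to 120351803 (INHBB), chromosome 12 from 57452323 to 57459280 (INHBE), chromosome 19 from 18374731 to 18389176 (GDF15) and chromosome 14 from 53949736 to 53958761 (BMP4). The binders lie on chromosome 5 from 53480626 to 53487134 (FST), chromosome 19 from 676392 to 683392 (FSTL3) and chromosome 2 from 32946953 to 33399509 (LTBP1). The library kit does not mark strand and the strand setting of the counting is not given in the sources used here, so reads from overlapping genes on opposite strands cannot be told apart. TGFB2-AS1 covers 11.6% of the TGFB2 exon bases on the opposite strand, HNRNPUL1 6.59% of those of TGFB1 and INHBA-AS1 2.99% of those of INHBA, and TGFB2-OT1 covers 22.7% of the TGFB2 exon bases on the same strand. Unnamed long noncoding RNAs on the opposite strand cover 16.4% of the exon bases of INHBE, 16.3% of those of BMP4 and 3.39% of those of LTBP1.

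With the ABL knockdowns, TGFB2 had the lowest ratios of the members compared, 0.316 to 0.376 times shCtrl. FST was also lower and LTBP1 higher in all 3, and the remaining members took different directions in different knockdowns. The share of all genes with the same direction in all 3 is not given here, so a shared direction does not set these members apart. With 1 library a group no difference has a replicate check, and ratios are given with exact 95% intervals that cover counting error only. All 3 ratios of a gene share the single shCtrl library, so a deviation of that library would move them together. INHBE, with 0 counts in shCtrl and 8, 8 and 2 with ABL1, ABL2 and both shRNAs, was too low to be compared, which left 9 members.

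TGFB2 was at 205.3 normalised CPM in shCtrl and 77.3, 76.0 and 64.8 with ABL1, ABL2 and both shRNAs. The control library was thus the highest by far and the 3 knockdowns lay close together. Relative to shCtrl the ratios were 0.376 (0.349 to 0.406), 0.370 (0.343 to 0.399) and 0.316 (0.291 to 0.342), or 2.66-fold, 2.70-fold and 3.17-fold lower. The antisense gene TGFB2-AS1 had 127 counts in shCtrl and 41, 50 and 55 with ABL1, ABL2 and both shRNAs, and its part in the TGFB2 values was not tested. Of the 15311 genes above the count minimum in all 3 comparisons, 1.09% were past 2-fold lower in all 3 and 1.10% past 2-fold higher in all 3, and 1 of the 9 members, TGFB2, was among the former and none among the latter. After Ponatinib, the TGFB2 groups overlapped.

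FST was at 39.6 normalised CPM in shCtrl and 21.3, 17.0 and 17.4 with ABL1, ABL2 and both shRNAs. Its ratios were 0.538 (0.462 to 0.627), 0.429 (0.363 to 0.505) and 0.438 (0.370 to 0.517), so that all 3 knockdowns lay below the control. LTBP1 was at 105.2 normalised CPM in shCtrl and 131.2, 246.6 and 149.9 with ABL1, ABL2 and both shRNAs. All 3 lay above the control, and the ratio reached 2.34 (2.19 to 2.51) with ABL2 shRNA against 1.25 (1.16 to 1.34) with ABL1 shRNA and 1.42 (1.32 to 1.53) with both.

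With ABL1 shRNA, INHBB was the 1 member past 2-fold higher and TGFB2 the 1 past 2-fold lower, beside 4.86% and 4.04% of the 15832 genes with at least 10 counts in either sample. INHBB was at 8.09 normalised CPM in shCtrl and 17.95, 6.51 and 11.0 with ABL1, ABL2 and both shRNAs. It was thus highest with ABL1 shRNA, with ratios of 2.22 (1.74 to 2.86), 0.805 (0.590 to 1.096) and 1.36 (1.04 to 1.80). INHBA was at 18.7 normalised CPM in shCtrl and 22.5, 9.77 and 13.7 with ABL1, ABL2 and both shRNAs, lowest with ABL2 shRNA at a ratio of 0.522 (0.414 to 0.654).

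With ABL2 shRNA, LTBP1 was past 2-fold higher and TGFB2 and FST past 2-fold lower, beside 4.64% and 3.08% of 15769 genes. The 9 members had a median log2 ratio of -0.79 in this sample, against -0.0062 over all genes compared. FSTL3 was at 16.5 normalised CPM in shCtrl and 17.6, 8.34 and 14.1 with ABL1, ABL2 and both shRNAs, and BMP4 at 190.6, 199.8, 110.1 and 159.4. Both were lowest with ABL2 shRNA, at ratios of 0.504 (0.393 to 0.644) and 0.577 (0.539 to 0.618). GDF15 was at 23.5 normalised CPM in shCtrl and 20.03, 41.0 and 22.9 with ABL1, ABL2 and both shRNAs. It was high only in the ABL2 shRNA library among these 4, with ratios of 0.853 (0.717 to 1.016), 1.75 (1.503 to 2.03) and 0.978 (0.824 to 1.16). TGFB1 was at 68.7 normalised CPM in shCtrl and 51.3, 88.4 and 72.9 with ABL1, ABL2 and both shRNAs, lying on either side of the control in the single knockdowns.

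With both shRNAs, no member was past 2-fold higher and TGFB2 and FST were past 2-fold lower, beside 4.47% and 3.27% of 15733 genes. The median log2 ratio of the 9 members was -0.22 in this library and 0.07 with ABL1 shRNA, against 0.0003 and 0.0044 over all genes compared.

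**Figure D4:**
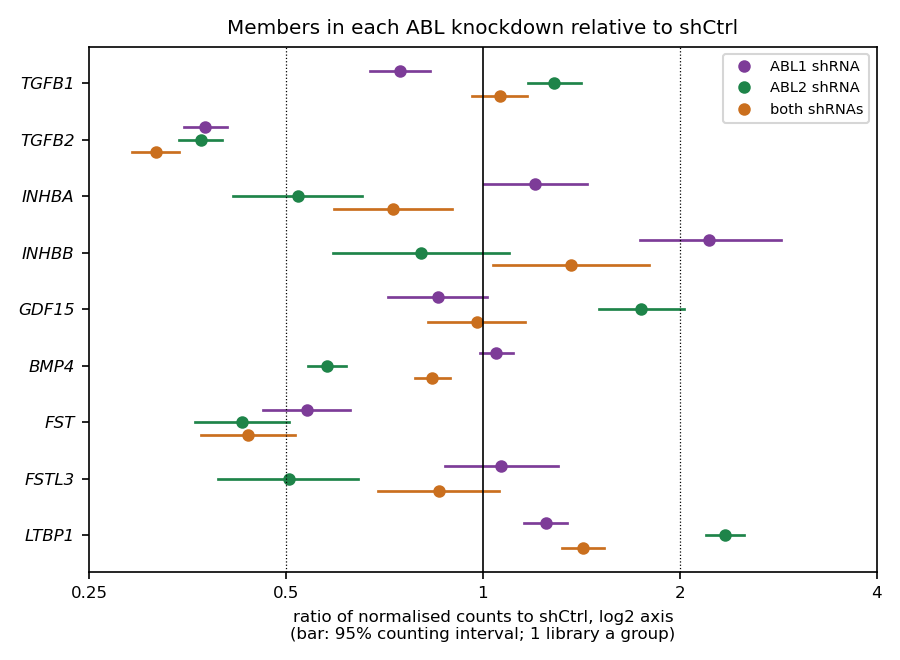
Ratio of normalised counts to shCtrl (x axis, log scale) of 9 members in each ABL knockdown, 1 library a group, with exact 95% counting intervals; dotted lines mark 2-fold. The 3 TGFB2 points lie between 0.316 and 0.376 and the 3 FST points between 0.429 and 0.538, whereas INHBB reaches 2.22 with ABL1 shRNA and LTBP1 2.34 with ABL2 shRNA.

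The other ligands of the family were mostly silent. Of 26, 6 passed the filter on low counts in the drug experiment, where TGFB3 rose (log2 fold change 1.00, edgeR adjusted p = 0.0043) and GDF11 fell (-0.36, adjusted p = 0.0084). TGFB3 was at 3.18 and 2.73 CPM with DMSO and at 5.41 and 6.62 CPM with Ponatinib, so both Ponatinib samples were above both DMSO samples. In the knockdowns, LEFTY1, which encodes an inhibitor of Nodal signalling, had 13 counts in shCtrl, 45 with ABL1 shRNA and 41 with both (ratios 3.03 and 2.95), and BMP5 had 55 counts in shCtrl and 19 with ABL2 shRNA (ratio 0.312).

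Among 16 receptors, 12 were tested after Ponatinib, of which 4 rose and 1 fell, with a median log2 fold change of 0.20, beside 15.0% and 15.7% of all genes tested and their median of -0.0047. The same shares of all genes stand beside the list counts that follow. The largest rises were those of the coreceptor TGFBR3 (log2 fold change 0.58, edgeR adjusted p = 1.3e-04), the BMP type I receptor BMPR1A (0.48, adjusted p = 1.3e-04) and the type I receptor ACVR1 (0.35, adjusted p = 0.021). TGFBR2, the type II receptor through which TGF-beta acts, fell from 258.0 and 264.5 CPM to 167.7 and 180.2 CPM (log2 fold change -0.59, edgeR adjusted p = 4.9e-06), without overlap of the groups. In the knockdowns TGFBR2 was past 2-fold higher with ABL2 shRNA (ratio 2.27, 2.19 to 2.35). GFRAL, the GDF15 receptor, had no counts in any sample, which allows up to 0.2306 to 0.3964 CPM.

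All 6 receptor-activated and common SMADs were tested, and SMAD2 (log2 fold change 0.41, edgeR adjusted p = 8.3e-04) and SMAD9 (1.13, adjusted p = 0.0026) rose while the other 4 did not pass (median of the 6, 0.10). Of 10 intracellular inhibitors (median log2 fold change 0.21), 3 rose, namely the pseudoreceptor BAMBI (0.79, adjusted p = 5.3e-05), the corepressor TGIF1 (0.57, adjusted p = 3.9e-05) and the inhibitory SMAD6 (0.48, adjusted p = 0.020), and 2 fell, both ubiquitin ligases that act on receptors or SMADs. NEDD4L went from 262.8 and 240.5 CPM to 86.6 and 78.8 CPM (log2 fold change -1.60, edgeR adjusted p = 4.9e-10) and SMURF2 fell as well (-0.83, adjusted p = 9.4e-08). PMEPA1, which sequesters receptor SMADs, was past 2-fold higher with ABL1 shRNA (ratio 2.59) and with both shRNAs (2.13). SMAD9 was past 2-fold higher with ABL2 shRNA (2.15, counting interval 1.34 to 3.55), on 62 counts against 26 in shCtrl.

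Of 20 genes for latency, activation and extracellular antagonism, 12 were tested after Ponatinib, with 1 rise, 3 falls and a median log2 fold change of -0.09. LTBP3 rose (log2 fold change 0.48, edgeR adjusted p = 0.0043), and THBS1, the BMP antagonist NOG and the latent TGF-beta tether NRROS fell (-0.61, adjusted p = 0.0012 for NOG and -0.44, adjusted p = 0.015 for NRROS). THBS1 encodes thrombospondin 1, an activator of latent TGF-beta, and went from 329.6 and 316.3 CPM to 137.6 and 147.1 CPM (-1.18, edgeR adjusted p = 3.2e-09). In the knockdown experiment THBS1 was past 2-fold lower in each library, with ratios to shCtrl of 0.375 (0.361 to 0.390), 0.276 (0.264 to 0.288) and 0.334 (0.321 to 0.348). These ratios share the single shCtrl library, and their intervals cover counting error only. NRROS was past 2-fold higher with ABL2 shRNA (2.42).

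Target genes of the pathway split after Ponatinib. Of 12, 11 were tested and 5 fell, all of them genes that are known to respond to TGF-beta but also to other inputs. CCN2 had the largest fall (log2 fold change -2.92, edgeR adjusted p = 4.8e-12), from 460.8 and 429.6 CPM to 63.3 and 53.2 CPM, followed by ANGPTL4 (-2.58, adjusted p = 1.9e-06) and IL11 (-2.44, adjusted p = 5.8e-11), and PTHLH fell less (-1.41, adjusted p = 0.011). TGFBI and TAGLN did not pass, and the median of the 11 was -0.33. The 4 inhibitor of differentiation genes, known targets of BMP signalling, all rose, by log2 fold changes of 0.52 for ID1, 2.14 for ID2, 0.77 for ID3 and 1.97 for ID4 (edgeR adjusted p of 1.3e-07 to 8.8e-05). In the knockdowns IL11 was at 288 counts in shCtrl, 2105 with ABL1 shRNA and 1679 with both (ratios 6.41 and 5.45). PTHLH was at 2.38 times shCtrl with ABL1 shRNA, on 38 counts against 14 (counting interval 1.26 to 4.75). ID1 was past 2-fold higher in all 3 knockdowns (2.02, 2.68 and 2.83), each against the same single shCtrl library. The ID1 counting interval with ABL1 shRNA, 1.82 to 2.25, spans 2.

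GDF15 and INHBE are known to be induced by the amino acid stress response, which runs through the factor ATF4, and 14 genes of that response were therefore set beside them. After Ponatinib, 13 of 14 rose, beside 15.0% of all genes tested, and the median log2 fold change of the 14 was 1.56, beside -0.0047 over all genes. The largest rises were those of DDIT4 (2.90, edgeR adjusted p = 4.8e-12), VLDLR (2.42, adjusted p = 5.0e-11) and SESN2 (2.37, adjusted p = 5.9e-11), and TRIB3, CHAC1 and ASNS rose by 2.29, 2.20 and 1.91. ATF4 mRNA itself rose less (0.24 on the log2 scale, adjusted p = 0.012), and ATF5 did not pass. In the knockdowns, 1 of the 14 was past 2-fold, SLC7A11 with ABL1 shRNA (ratio 2.02, counting interval 1.88 to 2.17). In that library 4.86% of all genes compared were past 2-fold higher. GDF15 was not past 2-fold in any knockdown. These genes were listed with earlier results of these data known, the GDF15 and INHBE values among them, so their counts are a description. Whether this response had a part in the GDF15 and INHBE values was not tested.

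**Figure D5:**
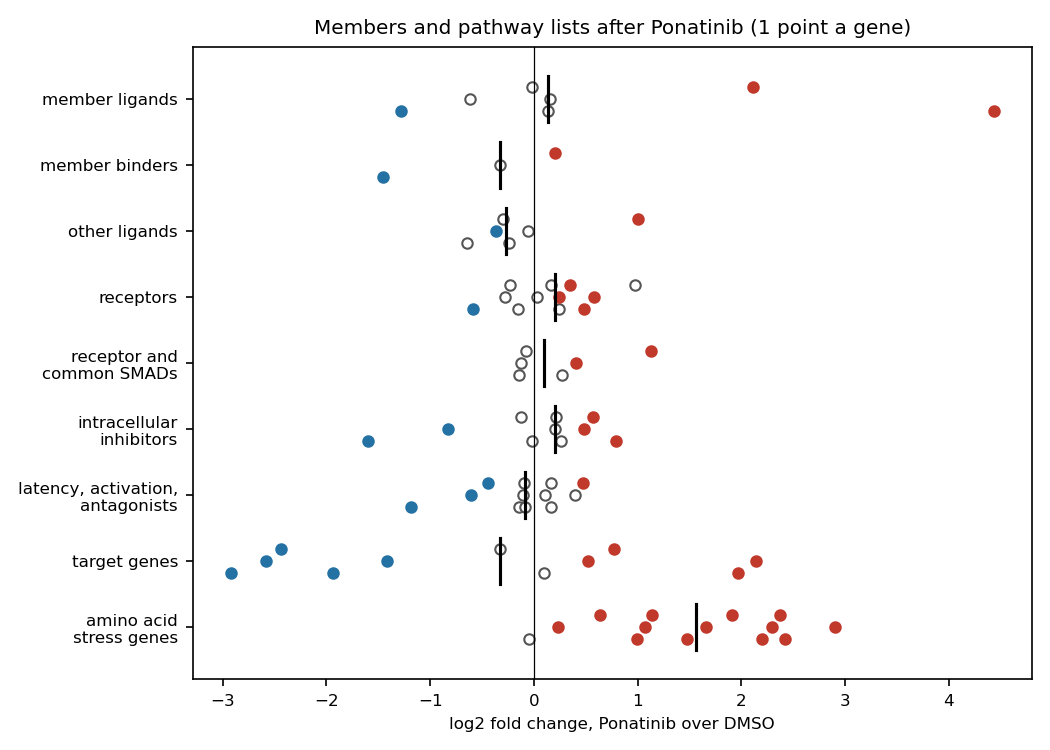
Log2 fold change, Ponatinib over DMSO (x axis), of each tested gene of the member and pathway lists, 1 point a gene; filled red points rose, filled blue points fell, open points did not pass, and black bars mark list medians. The stress genes lie to the right with a median of 1.56 and the target genes split between -2.92 for CCN2 and 2.14 for ID2.

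The genes whose levels ran most like those of the 5 members that changed after Ponatinib were sought over the 8 samples, each experiment centred on its own mean. They were sought among those genes with a symbol out of 18275 that passed a filter on low counts. The coefficients describe 8 points that share the drug contrast and the depth of each library. Being the highest among many genes, they were high by choice. For TGFB1, which did not pass the test, the highest was 0.994. The genes most like GDF15 were VLDLR (r = 0.997), ABCA1 (0.995) and ABHD12 (0.990). For INHBE they were TPT1-AS1 (0.993), GARS1 (0.993) and MKX (0.993). For FST they were SLC39A1 (0.990), CCT2 (0.989) and ANKRD1 (0.989), for INHBA UBE2J2 (0.987), TECTA (0.986) and MYH16 (0.985), and for LTBP1 BAZ2B-AS1 (0.989), TENT5C (0.989) and KIAA1671 (0.979).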

How the data were processed

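Per the labels and the study's methods, RNA libraries of LM2 cells were made with a kit that does not mark strand and sequenced on a HiSeq, and the reads were mapped to hg38 with TopHat and counted with HTSeq 0.6.0, as the submitters' processing notes name them. The counting options and annotation release are not given in the sources used here. The authors deposited raw read counts per gene, 1 file a sample, not normalised. In the shRNA files, reads assigned to no gene (9.48 to 9.90%) or ambiguously (6.12 to 6.32%) were left out.

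The members and gene lists were chosen with earlier results of these data known. Counts of the 2 DMSO and 2 Ponatinib samples entered edgeR 4.0.16 under R 4.3.3 (TMM, filterByExpr, quasi-likelihood test, prior count 0.125, Benjamini-Hochberg adjustment). Knockdown ratios used TMM over the 4 shRNA samples, genes with at least 10 counts in either sample and exact binomial intervals. IDs were matched to symbols and exon lengths of GENCODE on GRCh38 (54836 of 58688). The members were named whole; other genes were named from the lists where past the adjusted p, up to the 3 largest changes, past 2-fold with an adjusted p under 0.05, or, in a knockdown, past 2-fold with at least 10 counts in both samples, and those further list genes given beside them were added after their values were seen. The values of 1 target gene are not reported here. The fit was tested on simulated counts. Same-numbered repeats did not deviate together (r = 0.028 over 14715 genes), and the paired samples of a group differed beyond counting noise (chi-square per degree of freedom 1.40 and 2.92). Alternatives were other size factors, filters, DESeq2 1.42.0, a replicate block, a prior count of 2, each sample left out, a 1.5-fold threshold and a fit of all 8 samples.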

Additional observations from a re-analysis of the deposited data

How the results depend on the processing

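GDF15, FST and INHBA kept their direction and their call in every alternative fit of the drug experiment, and so did INHBE except under a filter of at least 10 counts in every sample, which removed it. The number of members called was 5, and 4 without a filter, with that stricter filter, by DESeq2's Wald test and without either DMSO sample. LTBP1 lost its call in 4 of these settings, as given above, and the cause was not tested. The sign of the TGFB2 difference turned without DMSO replicate 2 and without Ponatinib replicate 1, with log2 fold changes of -0.0775 to 0.0527 over the samples left out, none past the threshold. With a sample left out, its group has 1 sample, which is assumed to vary like the pair of the other group, so a call kept there is no replicate check. In a fit with a replicate block for the repeat number, 5 members were called, and no member's call changed; the 2 pairs share only a number. Over all genes, 4917 were called against 2586 by DESeq2, and 878 passed the study's thresholds against 549 with the stricter filter. The study itself reported fewer genes past these thresholds after Ponatinib, and the reason for the difference was not tested.

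In the knockdowns, the counts of members past 2-fold were the same with library totals, with DESeq2's size factors and with at least 10 counts in both samples. With a 1.5-fold threshold, 3, 7 and 2 members were counted with ABL1, ABL2 and both shRNAs, against 2, 3 and 2. The share of all genes past 1.5-fold is not given here, so these counts do not set the members apart. The 8-sample fit takes the spread of the shRNA libraries wholly from the drug pairs, so its calls have no replicate check and support none of the ratios. It counted 3, 4 and 2 members with ABL1, ABL2 and both shRNAs, where INHBE, added with each single shRNA, was called on 8 counts against 0. Over all genes it called 711, 556 and 552, against 1409, 1216 and 1217 past 2-fold. Depth limits INHBE most. A single library a knockdown leaves the spread between cultures unknown.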
